A study of Mus musculus with 19 samples.

Results

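The regions described here are 5 stretches of the mouse genome that hold many accessible sites in macrophages, named for the genes Itgav, Samhd1, Pik3ap1, Dock10 and Etv3. They were chosen by position in the mm39 build, as windows in which many peaks of a consensus list lay close together, and they hold 237 of its 140383 peaks, or 0.169%. Peak number and spacing were therefore what put these windows on the list, and they are given as a description with no test. ATAC-seq, which uses a transposase to cut and tag open DNA, was done on bone marrow-derived macrophages grown for 7 days with 4-hydroxytamoxifen. The labels name 19 samples in 10 groups, 9 from wild-type animals carrying Csf1r-Cre and 10 from Smarca5lox/lox Csf1r-Cre animals, in which the gene for an ISWI chromatin remodeller is deleted. Cells of both genotypes were untreated, or received the bacterial product LPS (10 ng/ml) or the cytokine interferon beta (100 U/ml), each for 1 h and for 2 h. Every group had 2 samples except wild-type cells given interferon beta for 1 h, with 1. All groups thus share the Cre transgene, which the Csf1r promoter drives in cells of the macrophage lineage, and no age of the animals was used here.

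The list gives a single set of values per peak for the whole series and names no sample. What follows describes the series as a whole: genotypes and treatments were not compared, the depth of each sample is unknown, and no value has a replicate error. Each peak has a start and an end, a fold, which MACS2 writes as enrichment over the local background, a −log10 q, which grows with enrichment and with the number of reads, and a summit, the position of highest signal. The fold and −log10 q are the authors' values and serve here only to describe and rank peaks within the list. Positions of genes in mm39 were not used here, so no peak was assigned to a promoter, exon or intron, whether each window matches its gene was not checked, and macrophage identity was not checked at marker genes.

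The 5 genes act at different points of macrophage biology. Pik3ap1 encodes BCAP, an adaptor that links immune receptors, Toll-like receptors among them, to phosphoinositide 3-kinase. Dock10 encodes a guanine nucleotide exchange factor linked to the actin cytoskeleton. Itgav encodes the integrin alpha V subunit, which binds extracellular matrix and helps phagocytes take up dying cells. Samhd1 encodes a dNTP hydrolase that limits the replication of retroviruses and responds to interferon in many cells. Etv3 encodes an ETS-family repressor linked to the arrest of proliferation as macrophages mature. In the GRCm38.p6 gene order, the nearest protein-coding neighbours are Tm9sf3 and Lcor for Pik3ap1, Cul3 and Nyap2 for Dock10, Zc3h15 and Fam171b for Itgav, Tldc2 and Rbl1 for Samhd1, and Fcrl5 and Etv3l for Etv3.

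The RefSeq promoters of the 5 genes are given as the 250 bases of reference sequence before an annotated start, 5′ to 3′ on the gene's strand. All 5 symbols matched the RefSeq table, whose build is GRCm38.p6; because the peaks are in mm39, no peak was placed on these sequences. Capitals mark matches to 6 motifs searched on both strands: GAGGAA for PU.1, TGANTCA for AP-1, copies of GAAA 2 bases apart for the interferon-stimulated response element, TTGCNNAA for C/EBP, CACGTG for an E-box and GGGCGG for Sp1. Overlaps between motifs were allowed.
Pik3ap1: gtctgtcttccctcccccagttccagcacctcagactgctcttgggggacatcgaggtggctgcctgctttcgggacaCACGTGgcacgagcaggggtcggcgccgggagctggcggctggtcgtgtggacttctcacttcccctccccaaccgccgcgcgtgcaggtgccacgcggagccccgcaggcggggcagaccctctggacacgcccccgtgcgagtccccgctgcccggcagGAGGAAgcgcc
Dock10, start 1: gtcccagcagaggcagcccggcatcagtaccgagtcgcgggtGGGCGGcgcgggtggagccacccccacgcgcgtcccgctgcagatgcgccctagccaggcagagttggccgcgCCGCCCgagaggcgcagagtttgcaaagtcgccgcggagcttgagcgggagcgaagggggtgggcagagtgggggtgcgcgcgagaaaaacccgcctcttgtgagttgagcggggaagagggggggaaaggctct
Dock10, start 2: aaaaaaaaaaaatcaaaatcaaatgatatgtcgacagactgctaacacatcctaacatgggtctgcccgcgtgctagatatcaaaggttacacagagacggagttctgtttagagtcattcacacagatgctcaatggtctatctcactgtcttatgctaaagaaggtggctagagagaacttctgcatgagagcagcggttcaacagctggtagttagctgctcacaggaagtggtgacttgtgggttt
Itgav: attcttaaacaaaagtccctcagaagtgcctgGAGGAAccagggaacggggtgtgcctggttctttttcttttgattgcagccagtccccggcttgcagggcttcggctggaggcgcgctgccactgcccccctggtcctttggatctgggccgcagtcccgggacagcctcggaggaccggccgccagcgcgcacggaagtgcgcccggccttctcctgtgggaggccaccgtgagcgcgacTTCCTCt
Samhd1: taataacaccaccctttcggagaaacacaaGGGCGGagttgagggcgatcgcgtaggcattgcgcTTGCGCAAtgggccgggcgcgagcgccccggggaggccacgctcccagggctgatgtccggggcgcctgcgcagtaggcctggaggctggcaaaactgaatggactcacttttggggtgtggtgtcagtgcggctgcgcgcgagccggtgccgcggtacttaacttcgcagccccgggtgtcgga
Etv3: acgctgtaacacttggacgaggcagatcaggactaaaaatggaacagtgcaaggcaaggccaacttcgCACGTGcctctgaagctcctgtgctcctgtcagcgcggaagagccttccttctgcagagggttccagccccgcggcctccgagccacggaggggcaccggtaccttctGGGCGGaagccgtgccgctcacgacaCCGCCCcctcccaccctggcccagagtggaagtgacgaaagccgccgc

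The PU.1 letters were found at Itgav, with 2 matches, and at Pik3ap1, with 1, and 23.3% of the 32851 promoters of the table hold them. An E-box was found once each at Pik3ap1 and Etv3, against 6.02% of all promoters. Samhd1 held 1 C/EBP match, against 9.56% of promoters, and 1 Sp1 match. Sp1 letters were also found at Etv3, with 2 matches, and at start 1 of Dock10, with 2, against 32.7% of promoters. None of the 6 sequences held the AP-1 letters, which 6.75% of promoters hold, or those of the interferon-stimulated response element, which 2.98% hold. Start 2 of Dock10 held no match to any of the 6 motifs. It was also the only one of the 6 sequences with less G and C than the median promoter, at 43.2% against 52.4%, while the others ranged from 64.0% to 71.2%. A match is a description of letters and not of binding.

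Peaks were packed several times more closely in all 5 windows than over the genome. The windows held 3.41 peaks per 10 kb together, against 0.547 per 10 kb over the autosomes and X. Samhd1 was the densest, with 32 peaks in 75 kb (4.27 per 10 kb). Etv3 had 32 peaks in 80 kb (4.00 per 10 kb), Itgav 44 in 120 kb (3.67) and Pik3ap1 50 in 140 kb (3.57). Dock10 had the most peaks, 79, but over 280 kb, which gives the lowest density of the 5 at 2.82 per 10 kb. When the autosomes and X were laid out in stretches as long as each window, the median stretch held 1 peak for the lengths of Samhd1 and Etv3, 2 for Itgav, 3 for Pik3ap1 and 7 for Dock10. The number of stretches with at least as many peaks as the window itself was 0 of 35034 for Samhd1, 1 of 9391 for Dock10, 2 of 18774 for Pik3ap1, 5 of 32846 for Etv3 and 8 of 21901 for Itgav. The windows were placed around their peaks and the stretches were not, so these ranks favour the windows.

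Even so, most of the DNA in each window lay outside peaks. Peaks covered 7.11% of the Dock10 window, 8.51% of Pik3ap1, 9.13% of Itgav, 9.18% of Etv3 and 11.9% of Samhd1. The median distance between neighbouring summits was 998 bp at Etv3, 1364 bp at Samhd1, 1714 bp at Itgav, 2129 bp at Pik3ap1 and 2419.5 bp at Dock10, against 5354 bp over the autosomes and X. At Etv3, 16 of 31 neighbouring summits were under 1000 bp apart (51.6%), at Samhd1 12 of 31 (38.7%) and at Pik3ap1 10 of 49 (20.4%), against 15.1% over the autosomes and X. Itgav and Dock10 lay between these, with 12 of 43 (27.9%) and 21 of 78 (26.9%).

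**Figure D1:**
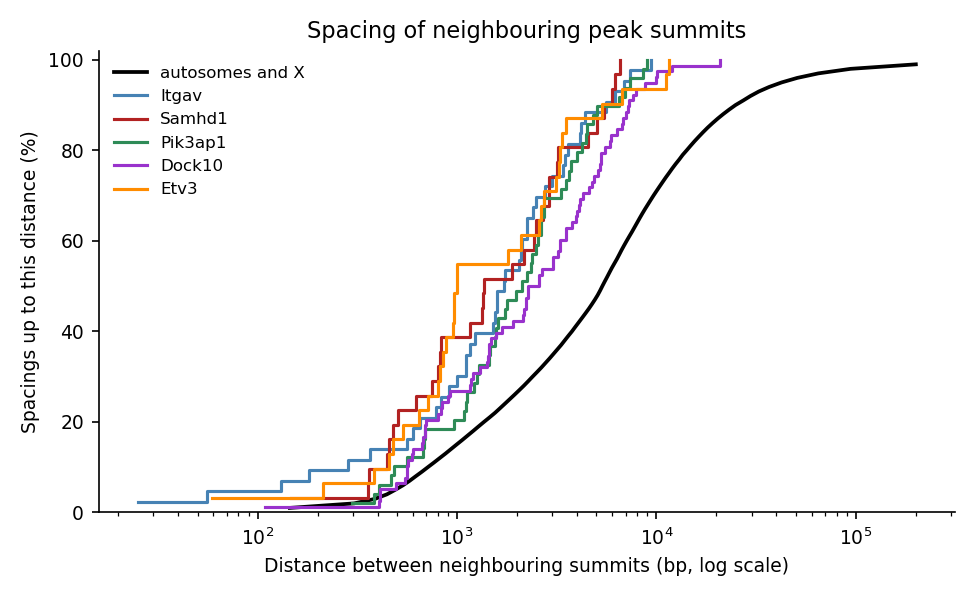
Cumulative share (%) of distances between neighbouring peak summits (bp, log scale) in each of the 5 windows (coloured steps) and over the autosomes and X (black line). The 5 windows reach 50% between 998 bp (Etv3) and 2419.5 bp (Dock10), to the left of the genome's 5354 bp.

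The peaks of these windows were mostly weak by fold and near the middle of the list by −log10 q. Their median fold was 5.48 (95% interval 4.89 to 6.19, n = 237 peaks), against 9.85 over the list. Per window the median fold was 4.20 at Samhd1 (95% interval 2.85 to 5.73), 4.52 at Itgav (4.01 to 5.61), 5.33 at Etv3 (3.90 to 8.13), 6.25 at Pik3ap1 (3.89 to 7.69) and 6.41 at Dock10 (5.33 to 7.78). All 5 intervals lay below the list's median, and each overlapped every other, that of Dock10 only narrowly those of Itgav and Samhd1. No test was made between windows. These intervals are order-statistic intervals that treat peaks as independent, and peaks of one window share their surroundings and their libraries. A fold under 5 was found in 104 of the 237 peaks (43.9%), against 10.4% of the list. That share was 56.8% at Itgav (25 of 44), 56.3% at Samhd1 (18 of 32), 46.9% at Etv3 (15 of 32), 42.0% at Pik3ap1 (21 of 50) and 31.6% at Dock10 (25 of 79). At the other end, 9 of the 237 peaks had a fold of at least 20, or 3.80%, against 15.0% of the list: 3 at Dock10, 2 each at Samhd1 and Etv3, and 1 each at Itgav and Pik3ap1.

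The −log10 q did not set the windows apart in the same way. Its median was 38.5 over the 237 peaks (95% interval 32.8 to 46.5) and 45.3 over the list. Per window the median was 33.4 at Etv3 (17.2 to 136), 35.1 at Samhd1 (18.2 to 44.5) and 40.0 at Dock10 (26.4 to 53.0). It was 43.7 at Itgav (20.0 to 60.3) and 46.3 at Pik3ap1 (27.1 to 96.3). Only the interval of Samhd1 lay wholly below the list's median, which 9 of its 32 peaks exceeded (28.1%). A −log10 q of at least 100 was reached by 58 of the 237 peaks (24.5%), against 28.2% of the list. Etv3 and Pik3ap1 lay above that background, with 12 of 32 (37.5%) and 17 of 50 (34.0%), while Itgav, with 9 of 44 (20.5%), Dock10, with 16 of 79 (20.3%), and Samhd1, with 4 of 32 (12.5%), lay below it. Both conditions together, a fold below and a −log10 q above the medians of the list, held for 58 peaks (24.5%), against 8.37% of the list.

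At a given fold, most of these peaks had a high −log10 q. Each −log10 q was divided by the median of the list's peaks in the same one of 100 fold classes, so that 1 is the level usual for that fold. The ratio exceeded 1 in 188 of the 237 peaks (79.3%), against 50.0% of the list by construction. Its median was 2.47 at Pik3ap1 (95% interval 1.65 to 4.14), 2.46 at Itgav (1.19 to 3.16), 2.10 at Samhd1 (1.14 to 2.74), 1.58 at Dock10 (1.26 to 2.13) and 1.49 at Etv3 (1.16 to 3.14). The highest single ratio, 13.1, belonged to a peak of 251 bp in Pik3ap1, chromosome 19 from 41330122 to 41330372, whose fold was 5.13 and whose −log10 q was 163.

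**Figure D2:**
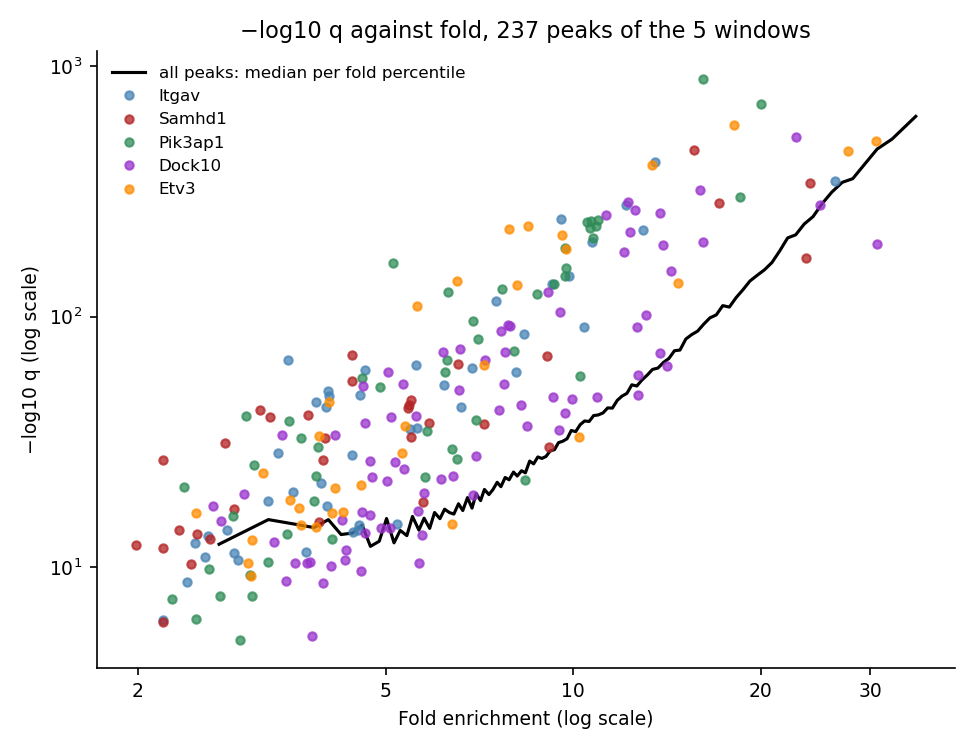
The −log10 q of the 237 peaks of the 5 windows (points, coloured by window) against their fold, both on log scales; the black line joins the medians of all 140383 peaks in each of 100 fold classes. Of the points, 188 lie above the usual level for their fold, and most lie to the left of the list's median fold of 9.85.

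A low fold, with a −log10 q high for that fold, was also found in crowded regions elsewhere in the list. Among all other peaks, the median fold was lower in each more crowded class, from 10.9 where 0 to 4 other peaks lay within 25 kb on either side to 5.13 where 20 or more did. The ratio of −log10 q to its usual level went the other way, from a median of 0.852 to 2.32. The −log10 q itself had no such order: its medians from the least to the most crowded class were 38.3, 47.4, 52.4, 52.3 and 42.3, and that of the 89 peaks of the windows in the most crowded class was 35.5 (95% interval 23.0 to 43.2). In that class these 89 peaks had a median fold of 4.42 (95% interval 3.86 to 5.49), which overlaps that of the 569 other peaks (4.81 to 5.50). Their ratio was 2.13 (1.54 to 2.61), again overlapping the 2.07 to 2.56 of the other peaks. This overlap is of the windows pooled. Taken alone, the 20 peaks of Itgav in that class lay lower, with a median fold of 3.87 (2.86 to 4.52). The ratio of these Itgav peaks was also lower, at 1.11 (0.919 to 2.05). In each of the remaining windows both intervals overlapped those of the 569 other peaks. With 15 to 19 neighbours, the medians of fold were 6.14 (95% interval 4.59 to 6.98) for 73 peaks of the windows and 6.96 (6.82 to 7.08) for 5428 others. Only with 10 to 14 neighbours did the intervals of fold separate for the windows pooled. They were 5.71 (5.05 to 7.78) for 65 peaks of the windows and 8.57 (8.50 to 8.64) for 29476 others. Of those 65 peaks, 43 lay in Dock10, where the median fold was 5.36 (4.75 to 7.22). No test was made of this difference.

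**Figure D3:**
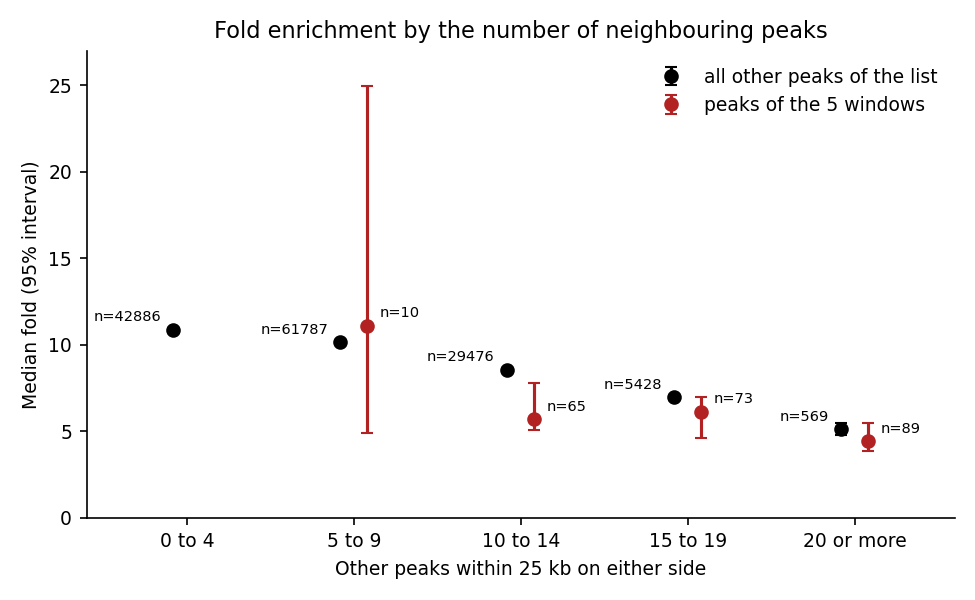
Median fold with its 95% order-statistic interval, by the number of other peaks within 25 kb on either side, for the peaks of the 5 windows (red) and all other peaks of the list (black); n is the number of peaks. Fold declines with crowding in the list from 10.9 to 5.13, and the 2 sets overlap in every class they share except 10 to 14 neighbours.

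Widths were close to those of the list. The median was 213 bp over the 237 peaks (95% interval 186 to 241), against 196 bp. By window it ran from 166.5 bp at Etv3 (95% interval 134 to 224) and 185 bp at Pik3ap1 (163 to 233) to 228 bp at Dock10, 237 bp at Itgav and 260.5 bp at Samhd1 (183 to 328). Peaks of at least 400 bp made up 14.8% (35 of 237), against 13.4% of the list. Across peaks, which share libraries and surroundings, fold and width had a Spearman's rho of 0.389 in the list, 0.455 at Etv3 (32 peaks) and 0.340 at Pik3ap1 (50 peaks). At Itgav, Samhd1 and Dock10 it was 0.00296 (44 peaks), -0.0224 (32 peaks) and 0.0307 (79 peaks), so wide peaks there were strong and weak alike. The widest peak of all 5 windows, 791 bp in Samhd1 on chromosome 2 from 156934678 to 156935468, had a fold of 3.14.

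**Figure D4:**
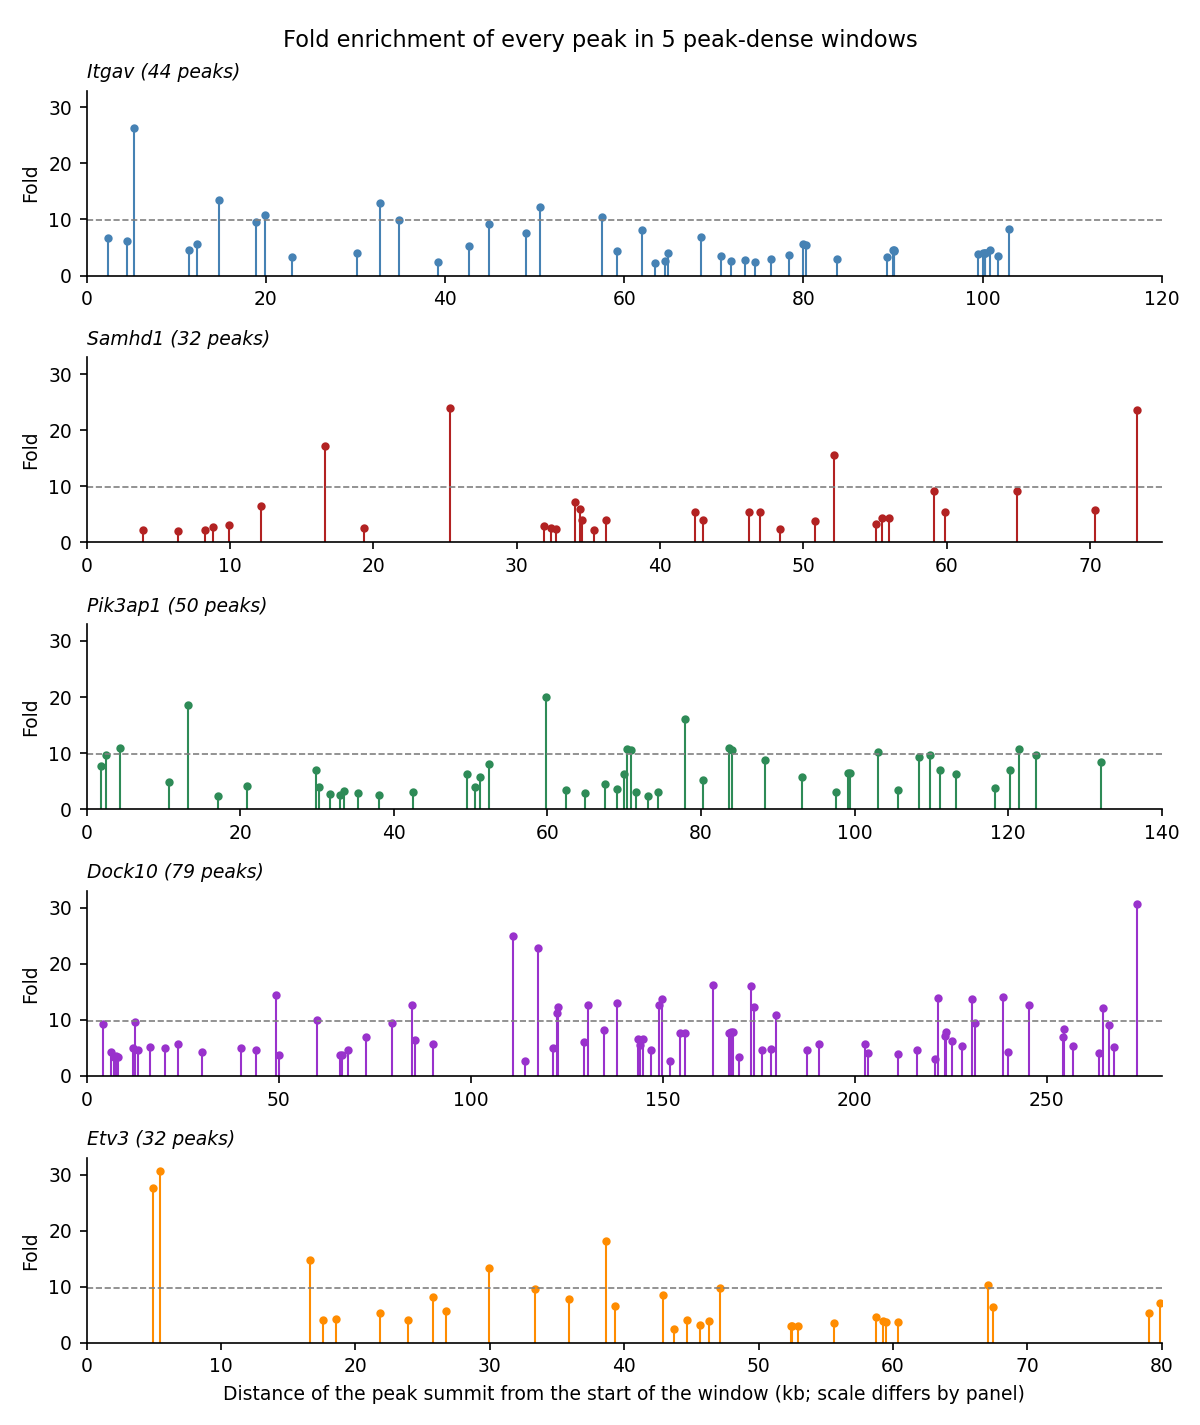
Fold enrichment of each of the 237 peaks (stems) by the distance of its summit from the start of its window (kb, on a scale that differs by panel); the dashed line is the list's median fold of 9.85. A few tall peaks, up to 26.3 at Itgav, 24.0 at Samhd1, 20.0 at Pik3ap1, 30.8 at Dock10 and 30.7 at Etv3, stand among many low ones.

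At Pik3ap1, the adaptor gene, the 3 strongest peaks lay between 13.1 and 77.9 kb from the start of the 140 kb window. The top peak, with a fold of 20.0, ran on chromosome 19 from 41309551 to 41310050 and had a −log10 q of 709. The next were 18.5 from 41263010 to 41263352, with a −log10 q of 301, and 16.1 from 41327498 to 41328149. That last peak was also the widest of the window, at 652 bp, and had the highest −log10 q of all 237 peaks, 892, or 9.57 times the usual level for its fold. The highest fold was only 3.20 times the window's median, against 4.80 to 5.83 times in the other windows, so Pik3ap1 was the most even of the 5 by this measure. No pair of its peaks touched. The second of 5 equal sections, from 28 to 56 kb, was the weakest: 12 peaks with a median fold of 3.55, of which 8 were under 5. The first and the last section had medians of 7.69 and 7.64. The longest stretch without a peak was 8793 bp, from 41270951 to 41279743. The lowest fold was 2.27, from 41267088 to 41267260, 3735 bp after the second strongest peak.

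At Dock10, the exchange factor gene, the left part of the window had a lower median fold than the right part. A stretch of 20481 bp without a peak, from 80560419 to 80580899 on chromosome 1, the longest of the 5 windows, divided them. To its left lay 25 peaks with a median fold of 5.03, a highest fold of 14.4 and a median −log10 q of 14.3. To its right lay 54 peaks with a median fold of 7.63 and a median −log10 q of 56.3. Both median folds lay below the list's 9.85. A −log10 q of at least 100 was reached by 1 of 25 peaks on the left and 15 of 54 on the right, against 28.2% of the list. The right part also held weak peaks. In the fourth of 5 equal sections, from 168 to 224 kb, 8 of 17 peaks had a fold under 5, and the median was 5.63. The division at the long stretch was chosen after the values were seen. The first peak to the right of the stretch, from 80580900 to 80581159, had the second highest fold of the window, 24.9, and the third, 22.8, followed from 80587283 to 80587755 with the window's highest −log10 q, 520. The highest fold of all 237 peaks, 30.8, was the last of the window, from 80743310 to 80743548. Its −log10 q of 195 was 0.418 times the usual level for that fold, whereas 60 of the 79 peaks of the window lay above theirs.

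A run of 3 touching peaks at Dock10, from 80637317 to 80638375, covered 1059 bp with no gap between the listed peaks and had folds from 7.66 to 7.91. A second touching pair, from 80592452 to 80592714, had folds of 11.3 and 12.3 and a −log10 q of 254 and 287. The widest single peak, 642 bp from 80734641 to 80735282, had a fold of 12.1. The lowest fold, 2.64, lay between the second and the third strongest peaks, from 80583955 to 80584137.

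At Itgav, the integrin gene, the strong peaks lay in the left part of the window. The top peak, with a fold of 26.3, ran on chromosome 2 from 83545090 to 83545413 and had a −log10 q of 348. The second, 13.5, from 83554383 to 83554912, was 530 bp wide and had the highest −log10 q of the window, 416. The third was 12.9, from 83572622 to 83572863. Further right the folds were lower: the median fold was 6.61 and 7.23 in the first and the second of 5 equal sections, then 4.41, 3.72 and 4.05. In the fourth section, from 72 to 96 kb, all 11 peaks had a fold of 5.61 or less and 9 were under 5. The widest peak, 680 bp from 83590219 to 83590898, lay in the middle section with a fold of 12.1 and a −log10 q of 279.

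The right part of Itgav also held 2 runs of 3 touching peaks. One, from 83629931 to 83630173, had folds from 4.43 to 4.52, and 2 of its summits were 25 bp apart, the closest of all 5 windows. The other, from 83639767 to 83640314, had folds from 4.01 to 4.06 and a −log10 q from 43.7 to 50.4. Between them lay the longest stretch without a peak, 9198 bp. Peaks that touch a neighbour made up 6 of 44 at Itgav (13.6%), 15 of 237 over the 5 windows (6.33%) and 2.35% of the list. The lowest fold of the window was 2.19, from 83603296 to 83603622. The last peak ended at 83643236, inside the window, and the next one lay 68800 bp past its right border.

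At Samhd1, the dNTP hydrolase gene, 4 strong peaks stood apart among many of the lowest folds in the 5 windows. They had folds of 17.1 (from 156941506 to 156941912 on chromosome 2), 24.0 (from 156950272 to 156950639), 15.6 (from 156976755 to 156977324) and 23.6 (from 156997996 to 156998406). The −log10 q of these 4 peaks was 285, 342, 464 and 172. No other peak of the window exceeded a fold of 9.14. The lowest fold of all 237 peaks, 1.99, was from 156931318 to 156931495, in a first section of 15 kb where 5 of 6 peaks were under 5. Next to the peak of fold 24.0 lay the window's longest stretch without a peak, 6134 bp, and beyond it a group of 10 peaks in 15 kb with a median fold of 3.94. The narrowest peak, 19 bp from 156959421 to 156959439, lay in that group with a fold of 5.86.

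At Etv3, the repressor gene, the strongest signal was a pair of peaks at the left edge. They lay 190 bp apart on chromosome 3, from 87394916 to 87395028 and from 87395219 to 87395665, with folds of 27.6 and 30.7 and a −log10 q of 458 and 501. A gap of 10428 bp separated them from the other 30 peaks. The third fold, 18.1, from 87428496 to 87428827, had the highest −log10 q, 586. It opened a stretch of 10 kb with 8 peaks of median fold 5.28, the first of the equally full stretches that held the most peaks in the window. The widest peak, 637 bp from 87422916 to 87423552, had a fold of 9.58 and a −log10 q 6.64 times the usual level. The fourth section, from 48 to 64 kb, also held 8 peaks within 10 kb. All of them were under 5, with a median fold of 3.57 and a highest fold of 4.57. The lowest fold was 2.48, from 87433642 to 87433771. The last section, from 64 to 80 kb, held 4 peaks, and the longest stretch without a peak, 11415 bp from 87457569 to 87468983, divided them.

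The fullest 10 kb held a like number of peaks in each window: 9 at Pik3ap1 and 8 in each of the others, where the fullest on the autosomes and X held 13. The median fold of these peaks was 3.22 at Itgav, 3.38 at Samhd1, 3.66 at Pik3ap1, 4.50 at Dock10 and 5.28 at Etv3. In each window that was below the median of the window as a whole. Samhd1 and Etv3 each had a second 10 kb that also held 8 peaks, and the values above are of the first. At Samhd1 the second, from the summit at 156971220, had a median fold above that of the whole window. At Etv3 the second had a median fold of 3.57, below that of the window.

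The summit lay in the central part of the peak, from 33.3% to 66.7% of its width, in 139 of the 237 peaks (58.6%), against 64.7% of the list. Samhd1 had the fewest such peaks, 11 of 32 (34.4%), and Etv3 the most, 25 of 32 (78.1%). The share was 70.0% at Pik3ap1, 57.0% at Dock10 and 52.3% at Itgav.

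Many deposited scores are not whole numbers, and how they were made is not known. A score that becomes whole only when multiplied by 20 cannot be a plain mean of fewer than 20 whole numbers, whereas a score that is whole after multiplication by 1 or 2 may rest on few. The series has 19 samples, so a multiplier of 20 cannot come from a plain mean of 1 whole number per sample, and what was averaged was not tested. The multiplier was 20 in 24 of the 237 peaks (10.1%), against 14.6% of the list, and 1 or 2 in 90 (38.0%), against 31.0%. By window, a multiplier of 20 was found in 2 of 44 peaks at Itgav, 3 of 32 at Samhd1, 5 of 50 at Pik3ap1, 10 of 79 at Dock10 and 4 of 32 at Etv3. The median fold was 12.9 among those 24 peaks and 4.09 among those 90, and the median widths were 318 and 214 bp. Over the list the same classes had median folds of 17.2 and 7.13. Some of the strongest peaks had small multipliers, 1 for the peak of fold 24.0 at Samhd1 and 1 for that of fold 22.8 at Dock10, and a small multiplier can also arise from many values.

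Peaks just beyond the windows show where the borders fall. To the left, the nearest peak outside lay 3575 bp from the border at Itgav (fold 12.0, against 6.61 for the first peak inside), 1039 bp at Samhd1 (4.59, against 2.19), 3268 bp at Pik3ap1 (7.80, against 7.69), 5491 bp at Dock10 (12.7, against 9.29) and 15455 bp at Etv3 (8.68, against 27.6). To the right it lay 68800 bp away at Itgav (6.64, against 8.35), 7464 bp at Samhd1 (8.91, against 23.6), 644 bp at Pik3ap1 (26.3, against 8.36), 353 bp at Dock10 (7.66, against 30.8) and 3399 bp at Etv3 (19.4, against 7.19). Every one of these outside peaks had a fold above the median of its window. That beyond the right border of Pik3ap1, at 26.3, exceeded all peaks inside, whose highest fold was 20.0. These outside peaks are not counted among the peaks of any window above.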

How the data were processed

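The submitters' processing notes name deepTools 3.5.1, MACS2 2.2.7.1, Picard 2.27.4 and STAR 2.7.9a, with build mm39. Their roles, thresholds and how samples were combined were not given in the sources used. The deposited list holds per peak a score, a fold (a ratio to local background), a −log10 q and a summit offset. The deposited −log10 q values and the authors' fold were used as given, with 0 columns of per-sample values. Coordinates were read as counted from 1. Then 0 neighbouring peaks share a base, and 1730 peaks start 1 base after the end of the peak before. Read so, 0 summit offsets lay at or past the width of their peak, against 74 when counted from 0. A peak belonged to a window when it overlapped it by any base. The summit is the start plus the offset. The score's multiplier was the smallest whole number up to 20 that made it whole within 1e-06. Intervals are 95% order-statistic intervals of medians. Peaks named in each window are the 3 highest by fold, the highest by −log10 q, the widest, the lowest by fold, the closest summits and the longest stretch without a peak; others, the sections, sides, crowding classes and runs were chosen after values were seen. The windows, members and lists were chosen with earlier results of these data known. Gene positions and cell type markers were not used, because the gene table is of another build. The functions were tested on simulated data. Alternatives were a stricter threshold, merging, summits, shorter windows and counting from 0. Scripts ran under Python 3.11.15 with scipy 1.17.1, pandas 2.3.3, numpy 2.4.6 and, for plots, matplotlib 3.10.9.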

Additional observations from a re-analysis of the deposited data

How the results depend on the processing

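Of 100 alternative values of peak number, density, covered share and median fold, width and −log10 q, 78 stayed within 1.5 times (numbers and shares) or within the 95% interval of the median. These were all 25 with peaks merged across gaps up to 150 bp, all 25 with the summit inside the window, all 10 with windows shortened by 10% at each side, all 15 counted from 0 and 3 of 25 under the stricter threshold. The stricter threshold kept only peaks at or above the list's median −log10 q, which by its construction removes weak peaks; the list's own median fold was then 15.7. For Itgav, Samhd1, Pik3ap1, Dock10 and Etv3 in turn, it left 21, 9, 25, 36 and 14 peaks, a covered share of 4.75%, 3.83%, 5.14%, 3.37% and 5.16%, a median fold of 8.10, 9.07, 9.70, 11.7 and 9.02 and a median −log10 q of 85.3, 70.2, 145, 91.3 and 199. The median width became 290 bp at Pik3ap1 and 269 bp at Etv3. No paired analysis was possible because no value in the list belongs to a sample, and for the same reason no replicate could be left out. Without known depth, a stretch that holds no peak is not shown to be closed.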
